A study of Homo sapiens with 4 samples.

Results

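The BCL2 family genes examined here are 10 rows of the deposited expression table, taken by symbol out of 33478 genes: BAX, BAK1, BAD, BCL2L11, BBC3, PMAIP1, BCL2L1, MCL1, BCL2 and BCL2L12. BAX heads the set because earlier results of these data placed it among the genes with the largest drop between the groups, so the differences below describe the chosen genes and carry no test. RNA came from MHCC-97H, a human hepatocellular carcinoma line with high metastatic capacity. Both groups carried a short hairpin RNA (shRNA), 2 libraries with the control hairpin (SH-NC) and 2 with a hairpin against the uridine-cytidine kinase gene UCK2 (SH-UCK2-B). The labels do not say how many hairpins, clones or cultures stand behind a group, so the spread between libraries may be technical.

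BCL2 family proteins decide whether the mitochondrial outer membrane stays closed during apoptosis. BAX and BAK form the pores that release cytochrome c, BCL2, BCL-XL and MCL1 hold them in check, and the BH3-only proteins (BAD, BIM, PUMA and NOXA here) neutralise those guardians or activate the pore formers. In hepatocytes and hepatoma cells BCL-XL and MCL1 are known as the main guardians.

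Levels are in TPM, an abundance per transcript length within a library's fixed total, so they can be compared between genes, but they keep no sequencing depth and no counting interval can be given. The rows used here summed to 850379 and 850534 TPM under the control label (replicates 1 and 2) and to 676811 and 643063 TPM under the UCK2 shRNA label. Over the 14038 genes averaging at least 1 TPM the median log2 difference was -0.22, and 74.7% of them were below 0. How far the lower sums account for this shift was not tested. Each difference is therefore given as deposited and after median-ratio scaling (scaled), which puts that median at -0.01. Ratios between 2 genes of 1 library do not depend on the column scale. The targeted gene did not separate the labels: UCK2 measured 135.7 and 93.6 TPM under the control label against 120.5 and 67.8 TPM where the label names UCK2. The descriptions of control replicate 2 and UCK2 shRNA replicate 2 also differ from their titles in a cell line or gene number. Whether libraries were exchanged was not tested, so the group names below are those of the titles, and the direction of every difference rests on them. The 12 hepatocyte and hepatoma markers were uneven. The epithelial keratins KRT8 (1792 to 3114 TPM) and KRT18 (461 to 913 TPM) were high and the secreted proteins APOH (46.5 to 67.9 TPM), TF (27.1 to 43.4 TPM) and ALB (18.6 to 29.5 TPM) were present, whereas APOA1 (0.250 to 2.32 TPM) and APOB (0.586 to 0.968 TPM) were near 0 and APOA2 was listed at 0 in both controls. The labels' extraction text speaks of retinas, but the 10 retina markers summed to only 2.83 to 3.78 TPM per library. The 4 leukocyte markers summed to 0.438 to 0.735 TPM per library, and the T cell marker CD3E was listed at 0 in all libraries. LUM of the fibroblast list (5.85 to 27.6 TPM) and PECAM1 of the endothelial list (20.4 to 24.5 TPM) were present. The rest of both lists was low. COL1A1, COL1A2, COL3A1 and DCN reached at most 1.39 TPM, and VWF, KDR and CDH5 at most 0.890 TPM.

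Promoter sequence from RefSeq (GRCh38.p14) was matched for 9 of the 10 genes, MCL1 being the exception. The stretch before the gene start in the deposited table is printed for BAX and BBC3, the 2 genes whose window holds the E-box letters CACGTG, and for PMAIP1 as one without them. BCL2L12, which like BAX and BBC3 was lower without overlap on both scales, does not hold them in either of its 2 windows. Capitals mark CACGTG, a palindrome that reads the same on both strands.
BAX: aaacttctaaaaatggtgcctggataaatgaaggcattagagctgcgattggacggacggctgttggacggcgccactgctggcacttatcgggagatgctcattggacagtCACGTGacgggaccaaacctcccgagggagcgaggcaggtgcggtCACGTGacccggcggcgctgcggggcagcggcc
BBC3: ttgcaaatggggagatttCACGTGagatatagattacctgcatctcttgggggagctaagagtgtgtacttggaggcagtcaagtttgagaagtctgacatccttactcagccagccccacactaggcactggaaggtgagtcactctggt
PMAIP1: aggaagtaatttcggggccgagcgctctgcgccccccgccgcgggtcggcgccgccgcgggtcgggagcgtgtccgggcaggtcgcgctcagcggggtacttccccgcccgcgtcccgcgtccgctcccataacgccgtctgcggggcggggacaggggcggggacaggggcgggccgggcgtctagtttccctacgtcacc

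The BAX stretch lies at chr19:48954625-48954814 on the plus strand, the BBC3 stretch at chr19:47232767-47232917 on the minus strand and the PMAIP1 stretch at chr18:59899746-59899947 on the plus strand. In the printed BAX bases CACGTG starts 78 and 33 bases before the gene start, and the full RefSeq window of 300 bases, which runs past that start, holds it 4 times. Of 35116 such windows of all genes, 7.26% hold CACGTG at least once and 5, or 0.0142%, hold it 4 times or more. The BBC3 window holds CACGTG once, and it was not found in the windows of the other 7 genes matched. The CCAAT box, searched on both strands, occurs in the BAX window 2 times and in 34.6% of all windows. These matches describe letters in a short window and say nothing about which factor binds there.

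BAX encodes one of the 2 pore-forming effectors (ENSG00000087088, chromosome 19, 48954815 to 48961798 of hg38, plus strand). It was the most abundant transcript of the 10 in every library. Control replicates 1 and 2 held BAX at 379 and 389 TPM, UCK2 shRNA replicates 1 and 2 at 227 and 204 TPM. Both UCK2 shRNA libraries lay below both controls, and the gap between the groups exceeded the spread within either. The means were 384 ± 7.35 and 215 ± 16.3 TPM (SD, n = 2 each), 1.78-fold higher in the controls. In bulk RNA, fewer cells with the transcript and less of it per cell cannot be told apart. The log2 difference of BAX was -0.83 on the log2(TPM + 1) scale as deposited and -0.59 scaled. After scaling BAX stood at 319 and 388 TPM against 247 and 220 TPM, so the groups stayed apart while the controls spread further. Only 1.17% of the 14038 genes had a difference as low as that of BAX, or 1.5% after scaling, which is the reason it was chosen.

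BAK1 encodes the other effector (ENSG00000030110, chromosome 6, 33572547 to 33580293, minus strand) and was an order of magnitude less abundant than BAX. BAK1 measured 25.5 and 29.8 TPM under the control label and 24.1 and 21.2 TPM under the UCK2 shRNA label. The groups did not overlap as deposited, but control replicate 1 and UCK2 shRNA replicate 1 were nearly equal. The log2 difference of BAK1 was -0.28 as deposited, close to the median of all genes, and -0.05 scaled, where the groups overlapped. The 2 effectors thus differed in size of shift within the same libraries. The BAX to BAK1 ratio was 14.8 and 13.0 in the controls and 9.42 and 9.6 in the UCK2 shRNA libraries, with no overlap.

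**Figure D1:**
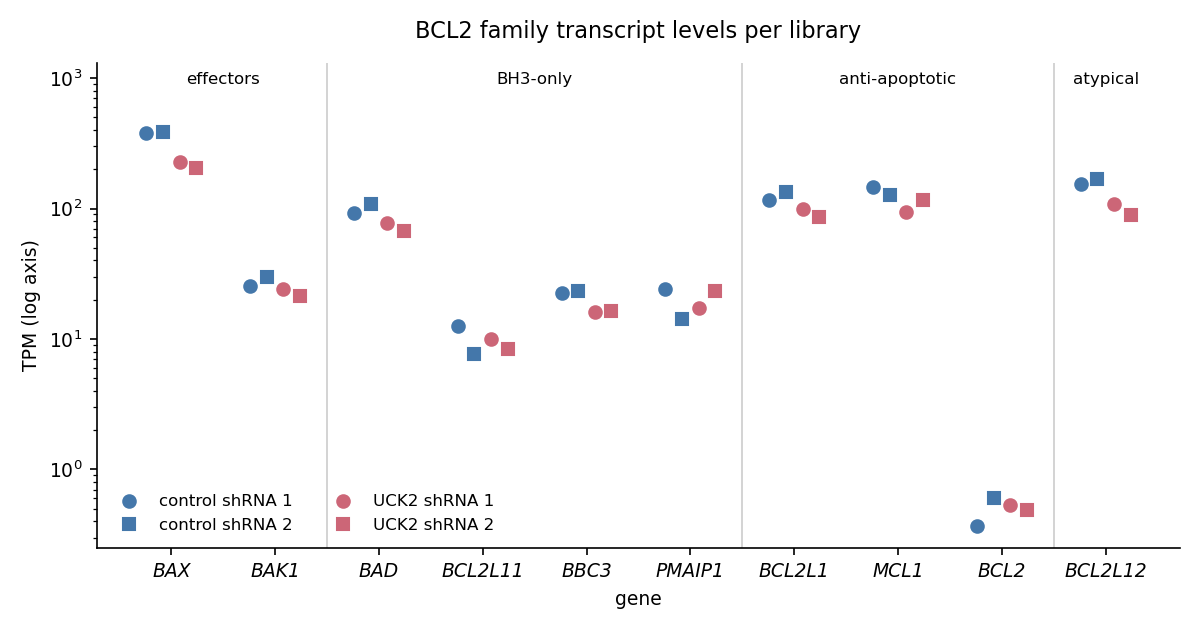
TPM of the 10 BCL2 family genes on a log axis, grouped by role, with 1 point per library (blue, control shRNA; red, UCK2 shRNA; circle, replicate 1; square, replicate 2). BAX is highest in each of the 4 libraries and BCL2 lowest, and BAX and BCL2L12 show the widest gaps between blue and red.

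The BH3-only genes spanned an order of magnitude in level and did not share one pattern. BAD, whose product binds BCL2 and BCL-XL and is inactivated by survival kinases, was the most abundant of them (ENSG00000002330, chromosome 11, 64269830 to 64284704, minus strand). BAD measured 92.3 and 108.9 TPM under the control label and 77.4 and 67.6 TPM under the UCK2 shRNA label. Its groups did not overlap as deposited (log2 difference -0.47) but overlapped after scaling (-0.23). GPR137, a protein-coding gene on the opposite strand, overlaps 14643 bases of BAD, and its own log2 difference was -0.59. Strand handling in the counting is unknown from the labels, so reads of such overlapping genes may not have been told apart.

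BBC3 encodes PUMA, a BH3-only protein that binds all the guardians (ENSG00000105327, chromosome 19, 47220822 to 47232766, minus strand). BBC3 measured 22.5 and 23.5 TPM under the control label and 16.2 and 16.2 TPM under the UCK2 shRNA label. As deposited, replicates of this gene were the closest of the 10 on the log scale, with a pooled SD of 0.03 for a log2 difference of -0.48. The scaled SD of BBC3 was 0.145 and no longer the smallest (MCL1, 0.143). After scaling the difference of BBC3 was -0.25, and the groups still did not overlap (18.9 and 23.4 against 17.6 and 17.5 TPM), although control replicate 1 came near the UCK2 shRNA libraries. That scaled difference of BBC3 was -0.10 without control replicate 2 and -0.39 without control replicate 1.

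PMAIP1, which encodes NOXA, the BH3-only partner of MCL1, did not follow BAX (ENSG00000141682, chromosome 18, 59899948 to 59904306, plus strand). PMAIP1 measured 24.1 and 14.3 TPM under the control label and 17.2 and 23.2 TPM under the UCK2 shRNA label. Control replicate 1 and UCK2 shRNA replicate 2 were the high libraries, so the groups overlapped. The log2 difference of 0.10 was smaller than the pooled SD of 0.41 between replicates as deposited, and the scaled difference of 0.33 was close to its SD of 0.31. Without control replicate 2 the difference of PMAIP1 turned to -0.26, without UCK2 shRNA replicate 2 to -0.10, and without control replicate 1 it was 0.46.

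BCL2L11 encodes BIM, an activator of BAX and BAK (ENSG00000153094, chromosome 2, 111119378 to 111168447, plus strand). BCL2L11 measured 12.6 and 7.63 TPM under the control label and 9.97 and 8.41 TPM under the UCK2 shRNA label. Both UCK2 shRNA values lay between the 2 controls. The log2 difference of -0.09 turned to 0.13 after scaling, and to 0.24 as deposited without control replicate 1.

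Among the guardians, BCL2L1 and MCL1 were present at similar levels and BCL2 was nearly absent. BCL2L1, which encodes BCL-XL (ENSG00000171552, chromosome 20, 31664452 to 31723989, minus strand), measured 116 and 133 TPM under the control label and 98.3 and 86.1 TPM under the UCK2 shRNA label. Its groups did not overlap as deposited (log2 difference -0.43), but overlapped after scaling (-0.19; 97.4 and 132 against 107 and 92.8 TPM). An antisense gene with a clone name lies within BCL2L1 on the opposite strand and measured 1.07 and 1.82 TPM in the controls against 4.24 and 4.65 TPM.

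MCL1, a short-lived guardian (ENSG00000143384, chromosome 1, 150574551 to 150579738, minus strand), measured 147 and 127 TPM under the control label and 94.1 and 116 TPM under the UCK2 shRNA label. The deposited values did not overlap (log2 difference -0.39), while the scaled values of 124 and 127 TPM against 102 and 125 TPM did (-0.15). UCK2 shRNA replicate 1 alone stood low after scaling. BCL2 itself (ENSG00000171791, chromosome 18, 63123346 to 63320128, minus strand) measured 0.369 and 0.60 TPM under the control label and 0.536 and 0.492 TPM under the UCK2 shRNA label. BCL2 missed the filter of a mean of 1 TPM and is the only one of the 10 outside the fit. Its values overlapped, and no difference can be read at this level.

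BCL2L12 is an atypical family gene whose product has been described as an inhibitor of effector caspases (ENSG00000126453, chromosome 19, 49665142 to 49673916, plus strand). It was left out of both the pro- and the anti-apoptotic sum. BCL2L12 measured 154 and 168 TPM under the control label and 109 and 89.2 TPM under the UCK2 shRNA label, with no overlap. The means were 161 ± 10.1 and 99.2 ± 14.1 TPM (SD, n = 2 each), and the log2 difference was -0.70, or -0.46 scaled (130 and 168 against 119 and 96.1 TPM). Without control replicate 2 that scaled difference was -0.28, and without UCK2 shRNA replicate 2 it was -0.31. Next to BAX it had the largest difference of the 10. The start of BCL2L12 overlaps IRF3 on the opposite strand by 734 bases. IRF3 measured 228 and 238 TPM under the control label and 147 and 140.2 TPM under the UCK2 shRNA label, with a log2 difference of -0.69. The part of shared reads in either value was not tested.

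**Figure D2:**
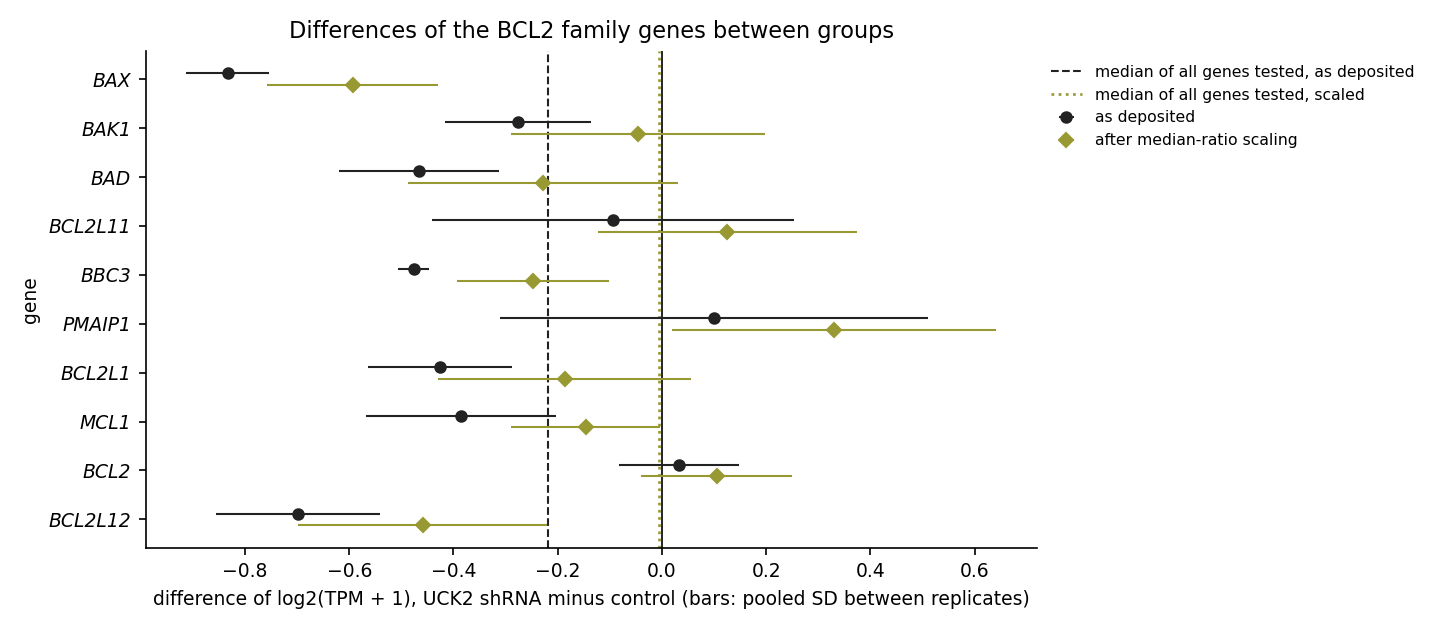
Difference of log2(TPM + 1), UCK2 shRNA minus control, for the 10 genes as deposited (black) and after median-ratio scaling (olive), with bars of 1 pooled SD between replicates. The dashed line at -0.22 and the dotted line at -0.01 mark the medians of all genes tested. BAX at -0.83 and BCL2L12 at -0.70 lie farthest below. PMAIP1 and BCL2 lie above 0 on both scales, with bars that cross 0 as deposited.

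Counted together, 7 of the 10 genes had both UCK2 shRNA libraries below both controls and 0 had both above; the other 3 (BCL2L11, PMAIP1 and BCL2) overlapped. Among all 14038 genes 44.4% were lower in this way and 5.46% higher. After scaling 3 of the 10 remained lower without overlap (BAX, BBC3 and BCL2L12), against 15.5% of all genes, and 0 were higher, against 16%. These shares are background only, since the same contrast chose the genes. The 9 genes tested had a median log2 difference of -0.43, or -0.19 scaled. Abundant genes shifted as much: the 1150 genes averaging at least 100 TPM had medians of -0.42 and -0.18. BCL2L1 and MCL1 sat near the middle of those abundant genes, with 47.5% and 56.6% of them at or below. BAD averaged 86.5 TPM, just under that level, and 37.4% of the abundant genes were at or below its difference. For BAX that share was 0.957% and for BCL2L12 5.13%. In the limma fit across all genes, 0 of 14038 passed an adjusted p under 0.05 in either direction (0% lower and 0% higher), so none of the 10 did in that fit. After scaling 9 genes (0.0641%) passed as higher and 0 as lower, and again none of the 10. At an unadjusted p under 0.05, 1962 genes (14%) were lower and 194 (1.38%) higher.

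The order of the genes by level was stable at its ends and mixed in between. BAX was the first, BAD the fifth, BCL2L11 the ninth and BCL2 the tenth in all 4 libraries. BCL2L12 was the second in 3 libraries and stood behind MCL1 in UCK2 shRNA replicate 2. MCL1 and BCL2L1 exchanged places between the replicates of each group, so their levels did not differ beyond their spread. PMAIP1 moved between the sixth and the eighth place, while BAK1 lay above BBC3 in all 4 libraries. BAX took 38.9% and 38.8% of the summed TPM of the 10 genes in the controls and 33.7% and 32.2% in the UCK2 shRNA libraries. The share of MCL1 was 15.1% and 12.7% in the controls and 13.97% and 18.3% in the UCK2 shRNA libraries, and the groups overlapped.

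The pro-apoptotic sum (BAX, BAK1, BAD, BCL2L11, BBC3 and PMAIP1) was 556 and 573 TPM under the control label and 372 and 340.3 TPM under the UCK2 shRNA label. The anti-apoptotic sum (BCL2L1, MCL1 and BCL2) was 263 and 261 TPM under the control label and 193 and 203 TPM under the UCK2 shRNA label. Both sums were lower in the libraries labelled UCK2 shRNA, the first by more than the second. The ratio of the pro- to the anti-apoptotic sum was 2.11 and 2.20 in the controls and 1.93 and 1.68 in the UCK2 shRNA libraries. That is a log2 difference of -0.26 with a pooled SD of 0.10, without overlap of the groups. It was -0.16 without UCK2 shRNA replicate 2 and -0.36 without UCK2 shRNA replicate 1.

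The lower ratio rested on BAX, which was chosen for its drop in this same contrast. The lower ratio is therefore no separate result. BAX made up 68.2% and 67.9% of the pro-apoptotic sum in the controls and 61.0% and 59.9% in the UCK2 shRNA libraries. With BAX left out, the ratio was 0.673 and 0.707 in the controls and 0.751 and 0.674 in the UCK2 shRNA libraries, and the groups overlapped. The BH3-only genes alone gave ratios of 0.576 and 0.592 against 0.626 and 0.570 to the guardians, also overlapping. When each gene counted equally, as a mean of log2(TPM + 1), the pro- minus anti-apoptotic difference between groups was -0.08.

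**Figure D3:**
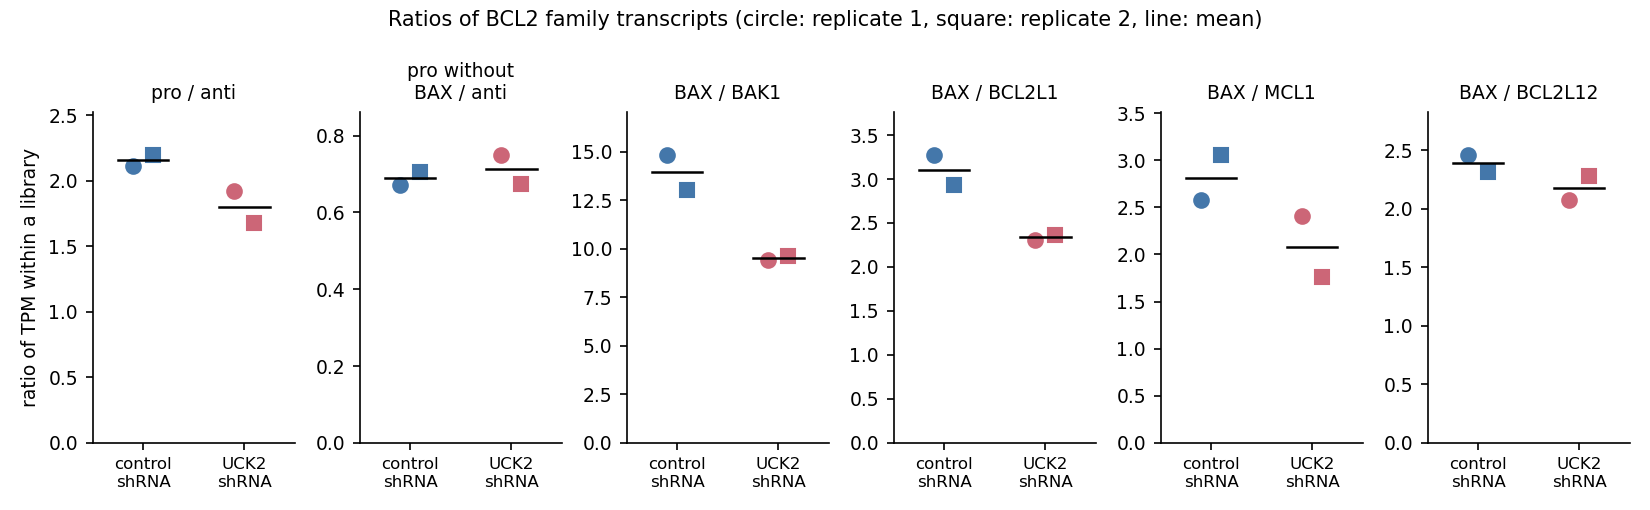
Ratios of TPM within each library (circle, replicate 1; square, replicate 2; line, mean; axes start at 0). The pro- to anti-apoptotic ratio and BAX over BAK1, BCL2L1, MCL1 and BCL2L12 are lower in both UCK2 shRNA libraries, while the ratio without BAX overlaps between the groups.

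BAX was also lower relative to each of the other 9 genes, of which BCL2 was close to 0. The BAX to BCL2L1 ratio, effector to guardian, was 3.28 and 2.93 in the controls and 2.31 and 2.37 in the UCK2 shRNA libraries. The BAX to MCL1 ratio was 2.57 and 3.06 against 2.41 and 1.76, where control replicate 1 and UCK2 shRNA replicate 1 lay close together. The BAX to BCL2L12 ratio was 2.46 and 2.32 against 2.08 and 2.28, so BCL2L12 kept nearest to BAX. These 9 ratios share the BAX value of each library and are not independent. Against every other gene above 0 in all libraries, BAX was lower without overlap for 79.2% of 13816 genes, and for 87.8% of the 1149 others averaging at least 100 TPM. BAX was chosen for its drop in this same contrast, so lower ratios against most of the table follow from that choice. They are no separate result.

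Ratios between the other genes were tight in some pairs and wide in others, and the pairs below are examples. Of the 36 pairs without BAX, 16 did not overlap between the groups. With BCL2 also left out, 11 of 28 did not. The share over pairs of all genes was not computed. Pairs that share a gene are not independent, and BCL2L12 was lower without overlap against 7 of 8 genes other than BAX. These counts are therefore description only. BAK1 over BCL2L1 was 0.221 and 0.224 in the controls and 0.245 and 0.246 in the UCK2 shRNA libraries. BAD over BCL2L1, a BH3-only gene against its guardian, barely moved, at 0.798 and 0.820 against 0.787 and 0.785, though without overlap. PMAIP1 over MCL1, the NOXA to MCL1 pair, was 0.164 and 0.112 against 0.183 and 0.200, higher in both UCK2 shRNA libraries. MCL1 over BCL2L1 was 1.27 and 0.957 against 0.957 and 1.35, with no separation of the groups.

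The genes whose profile over the 4 libraries was nearest to BAX were found by the root-mean-square distance of log2(TPM + 1) after centring each gene, among 7298 other protein-coding genes averaging at least 10 TPM. With 4 libraries this is a description of likeness only. The nearest were SNAPC2, of the complex that transcribes small nuclear RNA genes, RPP21, of ribonuclease P, SLC2A4RG, a regulator of the GLUT4 gene, ITFG3, and DKK3, a secreted Dickkopf family protein, at distances of 0.02 to 0.03. SNAPC2 measured 17.9 and 17.9 TPM under the control label and 10.3 and 8.91 TPM under the UCK2 shRNA label, and DKK3 measured 34.3 and 33.5 against 19.6 and 17.6 TPM. Of the BCL2 family, BCL2L12 came nearest, at place 76 with a distance of 0.09, followed by BBC3 at place 1061. MCL1, at place 3542, and PMAIP1, at place 6751, were far from the BAX profile.

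**Figure D4:**
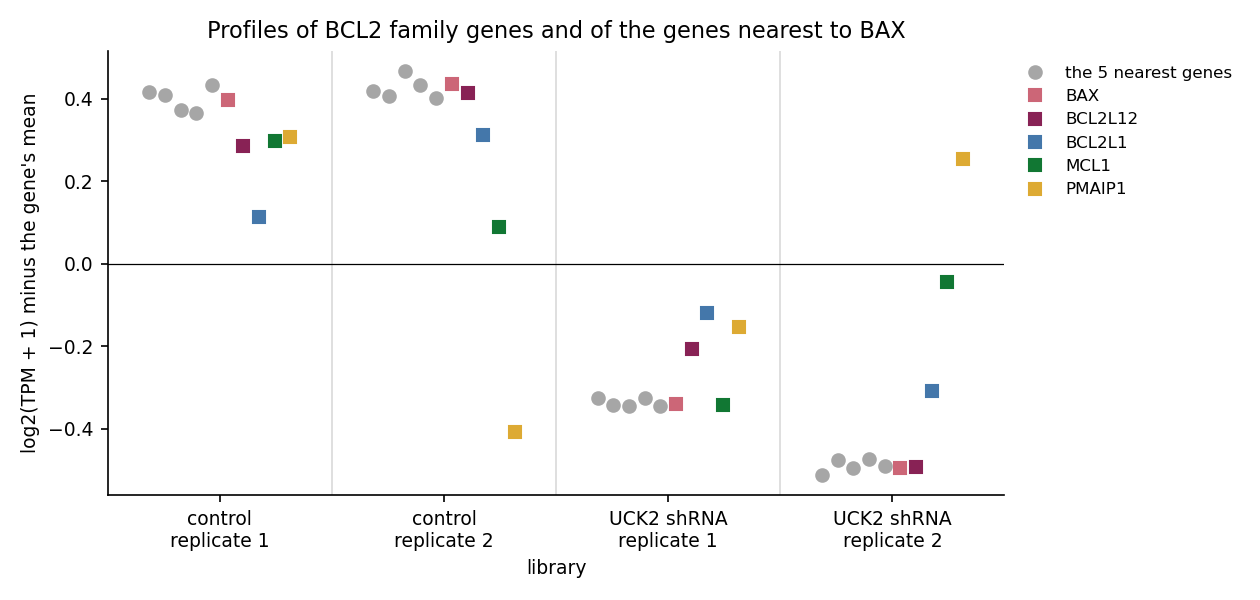
log2(TPM + 1) minus each gene's mean over the 4 libraries, for BAX, 4 other BCL2 family genes and the 5 genes nearest to BAX (grey); replicates have no order. BAX and the grey genes sit together in each library. PMAIP1 is high in control replicate 1 and UCK2 shRNA replicate 2 and low in control replicate 2.

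The wider pathway was read from 6 lists holding 71 genes, of which 56 averaged at least 1 TPM. In the limma fit 0 of the 56 passed an adjusted p under 0.05 in either direction, as 0% of all genes did. For 33 of the 56 both UCK2 shRNA libraries lay below both controls, or 10 of 56 after scaling, against 44.4% and 15.5% of all genes. Above both controls lay 0 of the 56 as deposited and 4 after scaling, against 5.46% and 16%. A log2 difference below 0 was the common state of the table, held by 74.7% of all genes and 97.8% of those averaging at least 100 TPM, or 50.8% and 82.9% after scaling. Among the other BCL2 family genes, 0 of 6 tested passed, 3 were lower without overlap (1 lower and 1 higher after scaling), and the median log2 difference was -0.29 (-0.07 scaled). BOK, a BAX-like effector, measured 41.3 and 46.9 TPM under the control label and 31.7 and 27.6 TPM under the UCK2 shRNA label (log2 difference -0.56, scaled -0.32). BOK was more abundant than BAK1 in each library. BMF, a BH3-only gene, measured 26.7 and 25.7 against 20.4 and 21.5 TPM.

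Downstream of the pore, 0 of 12 apoptosome and caspase genes passed, all 12 had a log2 difference below 0, as 74.7% of all genes did, and 8 were lower without overlap, against 44.4% (median -0.39, scaled -0.16). CYCS, cytochrome c, measured 256 and 146 TPM under the control label and 194 and 139 TPM under the UCK2 shRNA label, with overlapping groups. DIABLO, the SMAC protein that frees caspases from their inhibitors, measured 90.0 and 103.9 against 75.8 and 63.8 TPM. After scaling, 9 of the 12 were below 0, 4 were lower without overlap and 0 higher. The scaled shares of all genes were 50.8%, 15.5% and 16%.

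The inhibitors of apoptosis had a median above 0. Of 6 genes tested 0 passed, 2 were below 0 (all genes, 74.7%) and the median log2 difference was 0.13 (0.34 scaled). As deposited 2 were lower without overlap (all genes, 44.4%) and 0 higher (5.46%). After scaling 2 were below 0 (50.8%), and 0 were lower (15.5%) and 0 higher (16%) without overlap. The 2 most abundant genes of the list were the exceptions, both lower without overlap as deposited. BIRC5, survivin, a mitotic gene, measured 122 and 134 TPM under the control label and 109 and 70.6 TPM under the UCK2 shRNA label, and CFLAR, the caspase-8 regulator FLIP, measured 53.3 and 51.8 against 44.4 and 39.5 TPM. The positive median rested on single libraries: it was -0.36 without control replicate 2, -0.08 without UCK2 shRNA replicate 2 and 0.60 without control replicate 1.

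In the death receptor list 0 of 8 genes tested passed, all 8 were below 0 (all genes, 74.7%) and 6 were lower without overlap (all genes, 44.4%), with a median of -0.35, or -0.12 scaled. After scaling 6 of the 8 were below 0, 2 were lower and 1 was higher without overlap (all genes, 50.8%, 15.5% and 16%). TNFRSF1A, the receptor for tumour necrosis factor, measured 218 and 237 TPM under the control label and 202 and 172 TPM under the UCK2 shRNA label. TNFRSF10B, a receptor for TRAIL, measured 60.2 and 45.3 against 49.1 and 55.1 TPM. The damage response list had 0 of 10 genes passing, 8 below 0 and 5 lower without overlap (median -0.21, scaled -0.02), both near the shares of 74.7% and 44.4% of all genes. After scaling 5 of the 10 were below 0, 2 were lower and 1 was higher without overlap (all genes, 50.8%, 15.5% and 16%). CDKN1A encodes the cyclin-dependent kinase inhibitor p21. It measured 45.3 and 45.7 TPM under the control label and 37.9 and 32.1 TPM under the UCK2 shRNA label (log2 difference -0.38, scaled -0.14). PERP, a desmosomal and apoptosis-related membrane protein gene, measured 25.3 and 26.2 against 22.3 and 22.4 TPM (-0.19, scaled 0.04). MDM4, chosen after its values were seen, was the 1 gene of the lists that passed when control replicate 1 was left out (log2 difference 1.32, limma adjusted p = 0.0256, where the lone control is assumed to vary like the other group). MDM4 measured 11.3 and 3.74 TPM under the control label and 10.3 and 11.4 TPM under the UCK2 shRNA label, so control replicate 2 alone stood low. Over the other 16 settings, all 4 libraries as deposited (limma adjusted p = 0.500) included, its adjusted p ran from 0.0679 to 1.

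The outer membrane and partner list had 0 of 14 genes passing, 13 below 0 and 9 lower without overlap (median -0.37, scaled -0.13), beside 74.7% and 44.4% of all genes. After scaling 11 of the 14 were below 0, 1 was lower and 1 was higher without overlap (all genes, 50.8%, 15.5% and 16%). TMBIM6, known as BAX inhibitor 1, measured 738 and 808 TPM under the control label and 579 and 533 TPM under the UCK2 shRNA label. The adaptor YWHAZ, a 14-3-3 protein, measured 733 and 667 against 597 and 542 TPM. Their log2 differences were -0.47 and -0.30, or -0.23 and -0.06 scaled.

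**Figure D5:**
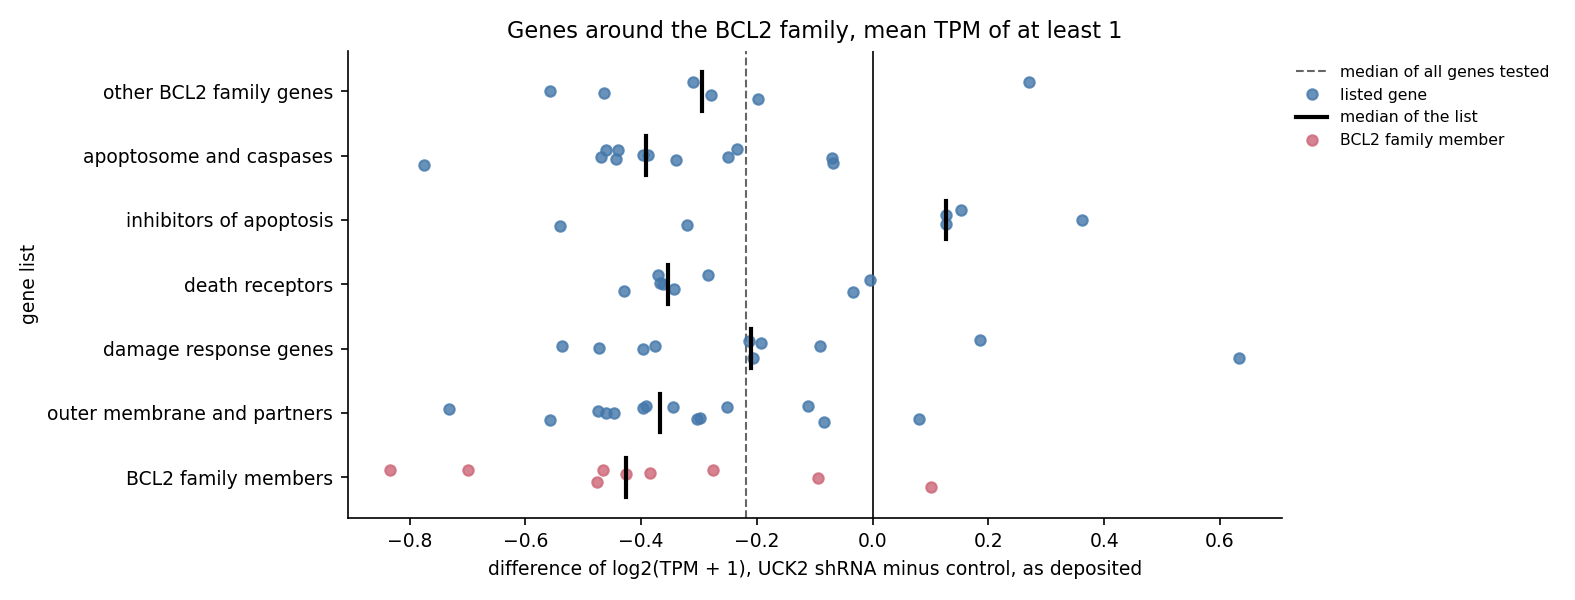
Difference of log2(TPM + 1), UCK2 shRNA minus control, as deposited, for each gene averaging at least 1 TPM in 6 lists (blue) and for the 9 BCL2 family genes tested (red), with list medians (black bars) and the median of all genes at -0.22 (dashed). The inhibitors of apoptosis have a median of 0.13, and the other 5 lists have medians from -0.39 to -0.21.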

How the data were processed

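RNA of 4 MHCC-97H libraries was sequenced, and TPM values per gene were deposited by the authors with Ensembl identifier, symbol, biotype and position. Per the submitters' processing notes, TopHat2 2.0.14, HTSeq, DESeq, edgeR and the build hg38 are named without roles. Whether strand was used is not stated in the labels. Libraries were grouped by title. The 14038 genes averaging 1 TPM or more were put on the log2(TPM + 1) scale and fitted by limma (version 3.58.1, R 4.3.3; eBayes with trend, two-sided, Benjamini-Hochberg over all genes, threshold 0.05). This scale understates changes of low genes. With 2 libraries against 2, the smallest p of an exact permutation test is 0.333. Median-ratio factors were 1.19, 1.00, 0.918 and 0.928. No gene had an identical value above 0 in any pair of libraries. The genes and lists were chosen with earlier results of these data known. Named list genes were the 2 with the highest mean TPM, unless said otherwise. BID, BIK, BCL2L13, TOMM22 and MARCH5 were not analysed here, and 1 gene of the lists is not reported here. Figures were drawn with matplotlib 3.10.9.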

Additional observations from a re-analysis of the deposited data

How the results depend on the processing

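Across all genes, 0 were called higher and 0 lower with limma as deposited, and also 0 with a pseudocount of 0.1, no filter, a mean TPM of at least 5 or eBayes without trend. Median-ratio scaling called 9 higher, quantile normalization 8 higher, and neither any lower. Leaving out each library in turn gave 0 to 242 higher and 0 to 108 lower, the highest counts without control shRNA replicate 1, and after scaling 0 to 23 (17 without control shRNA replicate 2) higher and 0 to 1 lower. The replicate block called 29 higher and 10 lower. Deviations of same-numbered libraries from their group means had a correlation of -0.21 across genes. With 2 libraries a group, that value cannot show whether the numbers pair them. Crossed numbers, added after seeing the data, called 91 higher and 636 lower, 2 of the 10 family genes (BAX and BCL2L12) and 3 listed genes (BAG1, ENDOG and TMBIM6) among them.

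BAX, BCL2L12 and BBC3 stayed below 0 in all settings run, but their sizes moved. With quantile normalization BAX was -0.42, BCL2L12 -0.29 and BBC3 -0.24. After scaling and without single libraries BAX ran from -0.73 to -0.45, BCL2L12 from -0.64 to -0.28 and BBC3 from -0.39 to -0.10, each smallest without control shRNA replicate 2. The difference of BCL2L11 turned to 0.13 with scaling and 0.0405 with quantile normalization. Without single libraries BCL2L11 ran from -0.42 to 0.24 (0.02 without UCK2 shRNA replicate 2), and after scaling from -0.09 to 0.34, with 0.00712 and 0.24 between. PMAIP1 ran from -0.26 to 0.46, with -0.10 between. MCL1 was 0.0132 with quantile normalization. After scaling and without control shRNA replicate 2, BAK1 was 0.18, BAD 0.00988 and BCL2L1 0.0326; BAK1 was 0.0498 without UCK2 shRNA replicate 2. The pro- to anti-apoptotic log2 ratio was -0.26, and -0.36 to -0.16 without single libraries. It was -0.39 with the effectors alone, 0.0455 without BAX, -0.16 with BCL2L12 counted as anti-apoptotic and -0.0815 from mean log2 values. The replicate block left it at -0.26. The 7 genes lower without overlap (all genes, 44.4%) became 3 with median-ratio scaling (all genes, 15.5%) or quantile normalization. Without single libraries the count was 7 to 9, and leaving a library out can only keep or raise it. The shares of all genes with quantile normalization and without single libraries were not computed. The median of the inhibitors of apoptosis ran from -0.36 to 0.60, with -0.08 between, and that of the outer membrane list was 0.000251 with quantile normalization. The cause of these changes was not tested. With 2 libraries a group and unknown depth, small differences cannot be resolved.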

Other observations

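The expressed protein-coding neighbours of BAX on chromosome 19 differed among themselves; 3 on each side were read. FTL, the ferritin light chain gene, starts 3503 bases after BAX and measured 15618 and 20075 TPM under the control label and 14670 and 12593 TPM under the UCK2 shRNA label (log2 difference -0.38, scaled -0.14). GYS1, muscle glycogen synthase, measured 39.8 and 36.7 TPM under the control label and 38.4 and 37.7 TPM under the UCK2 shRNA label (-0.01, scaled 0.23). RUVBL2, a chromatin remodelling ATPase, measured 158 and 183 against 122 and 94.0 TPM (-0.66, scaled -0.43). On the other side NUCB1, a Golgi calcium-binding protein, measured 256 and 254 against 205 and 195 TPM (-0.35, scaled -0.11), and PPP1R15A, the stress gene GADD34, measured 49.8 and 72.6 against 41.6 and 57.7 TPM with overlapping groups. DHDH, a dehydrogenase and the nearest of the 3 before BAX, measured 1.37 and 1.43 against 1.22 and 1.98 TPM.

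BNIP3L, a mitophagy receptor chosen after its values were seen, measured 17.6 and 13.1 TPM under the control label and 17.0 and 20.1 TPM under the UCK2 shRNA label, a log2 difference of 0.27 as deposited and 0.50 scaled.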
